A study of Mus musculus with 12 samples.

Results

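The comparison described here is that of striatum from TIF-IAD1RCre mutant mice with striatum from control mice at 9 weeks of age, across all genes measured. It was drawn by the array titles and holds 6 of the 12 arrays of the series, 3 mutant and 3 control. The other 6 arrays, from 13 weeks, entered the fit through the shared spread and are described only where a gene's difference at 9 weeks was set beside its difference at 13 weeks. All mice were of the C57Bl/6 strain, each array carried total RNA from the striatum of 1 mouse, and no treatment was given. The labels do not state the genotype of the controls beyond that word. The design text speaks of 3 mice at each time and also of 5 GeneChips for each condition; 3 arrays a group were analysed here.

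TIF-IA is the protein made from Rrn3, the factor that links RNA polymerase I to the promoters of ribosomal RNA genes. Without it a cell makes little new ribosomal RNA, and the nucleolus, where ribosomes are built, loses its normal structure. The name of the line places a Cre recombinase under the D1 dopamine receptor promoter. This design is meant to remove the gene in neurons that use that promoter and not in the other cells of the tissue. In which cells the gene was lost was not tested. Medium spiny neurons send the output of the striatum and use either the D1 or the D2 dopamine receptor. By that design the samples mix mutant neurons with cells in which the gene is intact. In such bulk samples fewer cells of a type and less RNA per cell cannot be told apart, and this holds for every neuronal gene below. The comparison addresses what differs in this tissue before the later age.

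Values are log2 expression on an Affymetrix array, and a gene is represented by its brightest probe set. Of 12393 named genes, 8256 were above the 40th percentile of the array on at least 3 arrays and were tested. A gene is called when its limma p-value, adjusted by Benjamini-Hochberg over all 8256, was below 0.05. The array medians lay between 5.29 and 5.38 at 9 weeks. Xist and Eif2s3y marked 1 female in each group of 3. The labels give medium spiny neurons as the cell type, but all 16 astrocyte, 18 microglial and 9 oligodendrocyte markers measured were above the 40th percentile on at least 1 array at 9 weeks. Mutant 3 stood apart: against the control mean it was shifted by 0.78 for markers of thalamus and pallidum (mutants 1 and 2 by -0.14 and -0.11), by 0.69 for microglial markers (-0.11 and 0.23) and by 0.55 for interneuron markers (0.23 and 0.21). Among the genes of these 3 lists none was called, and the part of that array in the results below was measured by leaving it out.

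At 9 weeks 413 genes were called, 5% of those tested. Of these, 167 were higher in the mutants (2.02% of all genes tested) and 246 were lower (2.98%). In all 413 the mutants and controls did not overlap, which was also so of 35.5% of all genes tested. The median size of a called difference was 0.88 log2, and 60 of the rises and 92 of the falls were over 2-fold. After median centring of the arrays 215 genes were higher and 173 lower. The count leaned on every array: it fell to 69, 92 and 80 without control 1, 2 or 3, and to 94, 62 and 221 without mutant 1, 2 or 3. It rose to 1358 without control 3 of 13 weeks, an array that enters only through the shared spread and deviated most from its group. A core of 50 genes (0.606% of those tested) was called with all arrays and again in each of the 6 fits that left out 1 array of 9 weeks, 18 of them higher and 32 lower in the mutants. These are called stable below; every other gene named as higher or lower lost its call in at least 1 of the 6 fits.

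**Figure D1:**
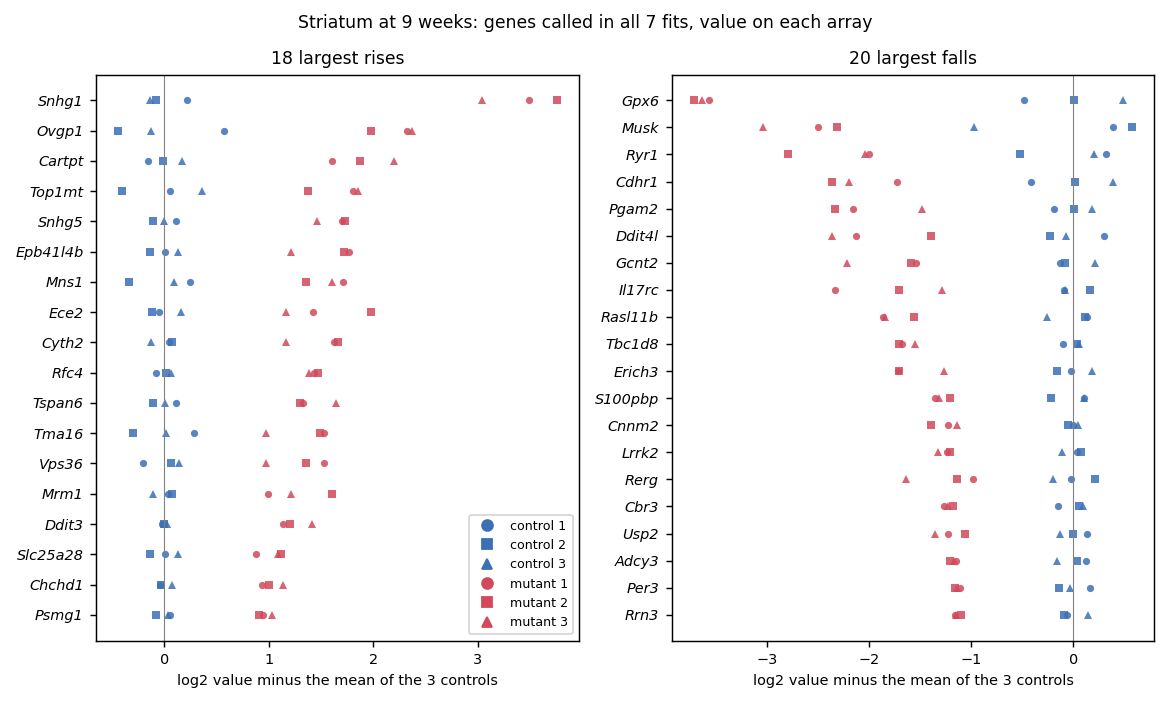
The 18 rises and the 20 largest falls among the 50 genes called with and without each array of 9 weeks. Each point is 1 array, as its log2 value minus the mean of the 3 controls, with the controls in blue and the mutants in red. In every gene shown the 3 mutants lie to one side of the 3 controls.

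The targeted gene itself was lower. Rrn3 read 8, 7.97 and 8.20 in control mice and 6.90, 6.96 and 6.91 in the mutants, so the nearest arrays of the groups were 1.01 log2 apart. The difference was -1.13 ± 0.18 (SE, n = 3 a group; adjusted p = 0.00748). At 13 weeks Rrn3 differed by -0.35 ± 0.18 (limma adjusted p = 0.128), so it was not called, and the groups overlapped. The difference at 13 minus that at 9 weeks was 0.78 ± 0.25 (limma adjusted p = 0.0525), also not called. Whether the probes lie in the deleted part is not known here. Of 16 RNA polymerase I subunits and factors, which carry out ribosomal RNA synthesis, Rrn3 alone was called. The 20 measured genes nearest to Rrn3 in the RefSeq gene order were also looked at, since a targeted allele can carry its flanks with it. Their differences ran from -0.92 for Clec16a to 0.48 for Litaf, none was called by limma, 3 had an unadjusted p below 0.05, and the lowest adjusted p was 0.0611, for Abcc1.

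The largest rise of all belonged to a host gene of small nucleolar RNAs. Such hosts are transcripts whose introns hold the small nucleolar RNAs that guide the modification of ribosomal RNA, and whose spliced exons code for no known protein in the cases below. Snhg1 read 7.72, 7.43 and 7.37 in control mice and 11, 11.27 and 10.55 in the mutants, 3.43 ± 0.25 (adjusted p = 5.44e-05), or 10.8-fold. Snhg5 read 7.35, 7.13 and 7.23 against 8.94, 8.97 and 8.70, a rise of 1.63 ± 0.17 (adjusted p = 0.00118). Both stayed called without any 1 array of 9 weeks. Other probe sets of Snhg1 differed by 4.11 and 3.00, while the dimmest over the filter, near 4 in the controls, differed by -0.37.

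The remaining hosts did not move as these did. Gas5 read 11.99, 12.12 and 12.08 in control mice and 12.38, 12.63 and 13.06 in the mutants, all mutants above all controls, with a difference of 0.63 ± 0.28 (adjusted p = 0.219). Snhg6, Snhg8 and Snhg11 differed by 0.34, -0.29 and -0.46 (adjusted p = 0.555, 0.65 and 0.303). So 2 of 6 hosts were called, against 2.02% of all genes in that direction. Annotated starts are printed here because genes of the translation machinery, Gas5 among them, are known for transcripts that begin with a cytosine and a run of pyrimidines. The capitals mark the first 10 transcribed bases, after 20 bases of upstream sequence, from the RefSeq table of GRCm38.p6: Snhg1 at chr19:8723467-8723496 (plus strand), Snhg5 at chr9:88522888-88522917 (minus), Gas5 at chr1:161035146-161035175 (plus, the downstream of 2 annotated starts) and Snhg8 at chr3:123508327-123508356 (minus).
Snhg1: cacacgttgttcttgtcggcCTCATTTTTC
Snhg5: aaaaggagctgcggtgaaccGGGCTCGTTC
Gas5: gactcagccgccatctcagcCTTTCGGAGC
Snhg8: tgcgcgcaccgttcagaagtCTCTTTGGCT
A cytosine followed by 4 pyrimidines stood exactly at an annotated start in 2 of 5 hosts with a promoter in the table, which were Gas5 and Snhg8, in 22.2% of 36 cytosolic ribosomal protein genes and in 3.09% of 6732 tested genes. Neither of the hosts that rose had these letters at its annotated start, and annotated starts can be some bases off.

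Beside the hosts, the stable rises were a mixed group of named functions. Ovgp1, an oviductal glycoprotein gene, read 4.02, 3.01 and 3.32 in control mice and 5.77, 5.43 and 5.82 in the mutants (2.22 ± 0.24, adjusted p = 0.00118). Its controls at 3.01 and 3.32 were below the percentile used by the filter, which was 3.54 and 3.52 on those arrays. The floor of the array therefore limits the size of this rise. Cartpt, which encodes the neuropeptide precursor CART, read 5.78, 5.92 and 6.11 against 7.54, 7.81 and 8.14 (1.89 ± 0.26, adjusted p = 0.00439). Top1mt, the mitochondrial DNA topoisomerase, read 4.94, 4.48 and 5.25 against 6.70, 6.27 and 6.74 (1.68 ± 0.22, adjusted p = 0.00344). In all of these the lowest mutant was over 1 log2 above the highest control. Cyth2, an exchange factor for Arf GTPases, was at 9.56, 9.59 and 9.39 in control mice and 11.14, 11.18 and 10.68 in the mutants (1.49 ± 0.19). Rfc4, a subunit of the clamp loader of DNA replication, was among the tightest, at 6.44, 6.53 and 6.58 against 7.95, 7.99 and 7.90 (1.43 ± 0.19), and its other probe set rose by 2.08.

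The other stable rises ranged from 0.96 to 1.57. They held the membrane cytoskeleton gene Epb41l4b (1.57), the cilium gene Mns1 (1.56), the peptide-processing enzyme gene Ece2 (1.52), the tetraspanin gene Tspan6 (1.42), Tma16 (1.33), the endosomal sorting gene Vps36 (1.29), Mrm1, which methylates mitochondrial ribosomal RNA (1.27), and the stress-response factor gene Ddit3 (1.25). Slc25a28, a mitochondrial iron carrier (1.03), Chchd1, a small mitochondrial protein (1.03), and Psmg1, an assembly chaperone of the proteasome (0.96), closed the group. A further probe set over the filter differed by only 0.10 for Vps36 and 0.12 for Ece2, so those 2 rises rest on 1 probe set each.

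The stable falls were led by a gene near the floor of the array in every mutant. Gpx6, a glutathione peroxidase, read 5.17, 5.66 and 6.14 in control mice and 2.09, 1.94 and 2.02 in the mutants, -3.64 ± 0.20 (adjusted p = 6.43e-06), the strongest call of the comparison. All 3 mutants were below the 40th percentile of their arrays, where probe sets without transcript also lie, so the size is limited by the floor of the array. Lrrk2, the kinase gene mutated in familial Parkinson's disease, read 10, 10.04 and 9.85 against 8.73, 8.76 and 8.64 (-1.25 ± 0.13, adjusted p = 0.00118). Rasl11b, a small GTPase gene of the Ras family, read 10.16, 10.14 and 9.77 against 8.16, 8.46 and 8.18 (-1.76 ± 0.16, adjusted p = 4.33e-04). The nearest mutant and control arrays were 1.31 log2 apart for Rasl11b and 1.09 for Lrrk2.

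Cdhr1, a photoreceptor-type cadherin, read 4.83, 5.26 and 5.63 in control mice and 3.51, 2.88 and 3.04 in the mutants, all 3 of which were below the 40th percentile, so the floor limits its difference of -2.10 as well. Further stable falls were Gcnt2, which branches poly-lactosamine sugar chains (-1.78), the interleukin-17 receptor subunit gene Il17rc (-1.78), the Rab-regulator gene Tbc1d8 (-1.65), Erich3 (-1.56), S100pbp (-1.29), the magnesium transport gene Cnnm2 (-1.25), the Ras-like gene Rerg (-1.25), the carbonyl reductase gene Cbr3 (-1.22), the deubiquitinating enzyme gene Usp2 (-1.21) and the adenylyl cyclase gene Adcy3 (-1.17). Their adjusted p-values lay between 0.00344 and 0.00771. None of them is in the list of markers shared by medium spiny neurons. Of 19 such markers tested, 4 fell (Cnr1, Actn2, Kcnip2 and Rarb), against 2.98% of all genes lower. None of the 4 was stable. At 9 weeks Cnr1 was above the 40th percentile in the controls alone, so nothing about the list is read from that count. The mean shift of that list was -0.54, -0.52 and -0.75 in the 3 mutants. The median difference was -0.42 over 5 tested markers of the D1 class, of which Sfxn1 was called lower. Over 4 tested markers of the D2 class it was -0.59, and none was called.

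Nuclear genes for the mitochondrial ribosome, taken only by names that begin with Mrpl or Mrps, were the list with the most called rises. This ribosome translates the few proteins encoded in mitochondrial DNA and carries its own ribosomal RNA, made by a polymerase other than RNA polymerase I. Of 74 genes tested 9 rose and none fell, against 2.02% and 2.98% of all genes, and 62 of 74 differences were above 0, against 3920 of 8256 over all genes. The median difference was 0.31 in the list and -0.02 over all genes. The mean shift was 0.20, 0.29 and 0.36 in mutants 1, 2 and 3, so each mutant lay on the same side.

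Within that list the called genes came from both subunits. Mrps18a, of the small subunit, read 9.03, 9.45 and 9.22 in control mice and 10.15, 10.39 and 10.22 in the mutants (1.02 ± 0.18, adjusted p = 0.0152). Mrps22 (0.77), Mrps24 (0.77), Mrps18c (0.70), Mrps18b (0.68) and Mrps7 (0.64) rose beside it, with Mrpl13 (0.75), Mrpl18 (0.62) and Mrpl42 (0.57) of the large subunit. The groups did not overlap in 59.5% of the list, against 35.5% of all genes. The single calls were fragile: without 1 array of 9 weeks between 0 (control 1, control 3 or mutant 2) and 3 (mutant 3) of the list were called, 1 without control 2 and 2 without mutant 1, but the median without mutant 3 was 0.29, close to that with all arrays. Without control 3 of 13 weeks 18 of the list were called, all higher, but then 6.37% of all genes were called higher too.

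**Figure D2:**
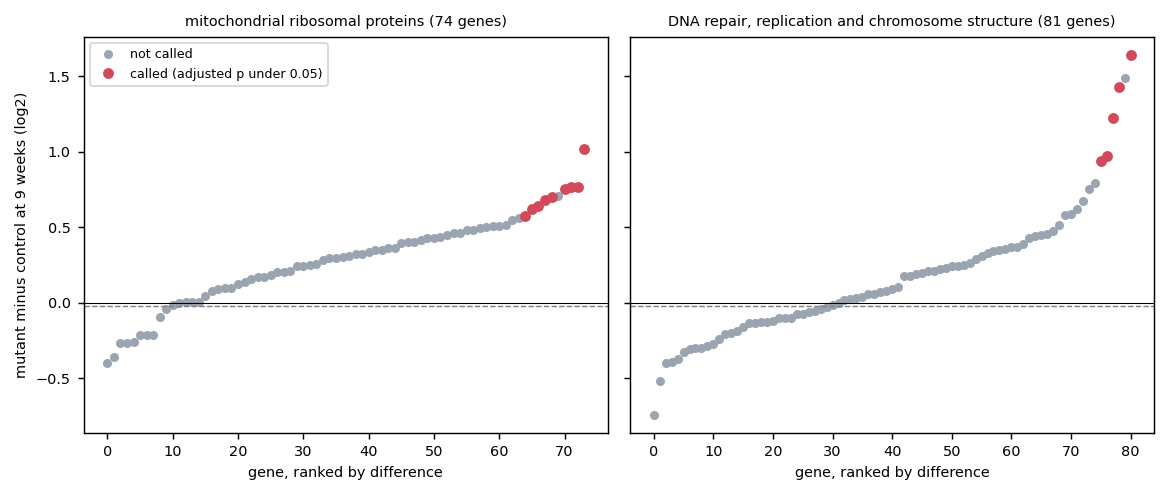
Every tested gene of the mitochondrial ribosomal protein list (74 genes, left) and of the DNA repair, replication and chromosome structure list (81 genes, right), ranked by the mutant minus control difference at 9 weeks (vertical axis, log2). Red points are called genes, 9 on the left and 5 on the right, all above 0; the dashed line is the median of all genes, -0.02.

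The promoters of the mitochondrial ribosomal protein genes that rose were read from the RefSeq table of GRCm38.p6, which holds 8 of the 9, since members that move together may share letters. Of the motifs searched, AAGATGG had the largest share in these promoters and is shown for that reason. It is the core of the motif of the factor YY1 and also holds an ATG. On either strand, it was present in 4 of these 8 promoters (50%), in 18.5% of the 65 mitochondrial ribosomal protein promoters and in 8.82% of the 6732 promoters of tested genes, each window running from 250 bases before to 50 after the start. It was also in 16.7% of the promoters of 36 cytosolic ribosomal protein genes, so it is not particular to the mitochondrial ones. The 4 matches are shown with the motif in capitals: Mrps18a at chr17:46111004-46111033 (plus strand), Mrps7 at chr11:115604147-115604176 (plus), Mrpl42 at chr10:95501904-95501933 (minus) and Mrps24 at chr11:5707652-5707681 (minus).
Mrps18a: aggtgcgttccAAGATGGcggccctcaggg
Mrps7: tgacagcggccAAGATGGctgcccccgcgc
Mrpl42: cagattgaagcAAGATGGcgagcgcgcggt
Mrps24: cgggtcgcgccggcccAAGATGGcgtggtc
In all 4 the motif began after the annotated start, at base 12, 19, 28 and 37 of the transcript in that order. Over the 139 promoters of all genes that rose, its share was 8.63%, near the background, and a match is a description of letters only.

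The other motifs were searched on both strands of the same windows: CACGTG (the E-box), TGACGTCA (the cyclic AMP element), TGATGNAA (a composite site of ATF4 and its partners), TGACNNNGC (the antioxidant element), TTTCCCGC and TTTGGCGC (both E2F sites), GAANNTTC (the heat shock element), the NRF1 site and ACCGGAAGT (an ETS site). In the genes that rose at 9 weeks the E-box was in 12.9% of promoters, against 10.2% of those that fell and 12.4% of all. For the antioxidant element the shares were 12.2%, 16.1% and 17%, and for the heat shock element 7.19%, 7.8% and 7.26%. The remaining motifs were each in 3.6% or fewer of the promoters of genes that rose.

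Mitochondrial genes outside the ribosome were mixed. Of 32 genes for the upkeep and expression of the mitochondrial genome, 2 rose: Top1mt, given above, and Clpp, a matrix protease subunit (0.82 ± 0.19, adjusted p = 0.0333). Among 45 genes of import, dynamics and carriers, the import chaperone genes Timm9 (0.88) and Timm13 (0.78) rose and the glutamate carrier gene Slc25a22 fell (-0.59). The median was 0.01 in the first of these lists and -0.04 in the second, beside -0.02 for all genes. Of 49 genes of glycolysis, the pentose phosphate pathway and the citrate cycle, Pgam2 and Pfkl fell and none rose, with a median of -0.13.

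The list of DNA repair, replication and chromosome structure had 5 rises and no falls among 81 genes, against 2.02% and 2.98% of all genes, while 32 of the 81 differences were below 0. The genes called were few and are given by name. Both subunits of the DNA primase were among them: Prim1 read 7.29, 7.14 and 6.99 in control mice and 8.20, 8.20 and 7.84 in the mutants (0.94 ± 0.16, adjusted p = 0.012), and Prim2 read 5.85, 5.39 and 6.54 against 7.27, 7.16 and 7.03 (1.23 ± 0.25, adjusted p = 0.0219). Rfc3, a partner of Rfc4 in the clamp loader, rose by 0.97, and Smc5, of a chromosome repair complex, by 1.64, though mutant 3 at 8.70 was nearer to the controls (7.82 to 8.20) than the other mutants at 10.35 and 9.94.

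A further probe set pointed the same way for each of the 5: it differed by 0.96 for Prim1, 1.10 for Prim2, 0.96 for Smc5, 2.08 for Rfc4 and 0.54 for Rfc3. Among 26 histone and histone chaperone genes, Nasp (1.51), Hmgb2 (1.29) and Asf1a (0.86) rose and none fell. Over all genes 2.02% were called higher and 2.98% lower, and 11 of the 26 differences in this list were below 0. Nasp and Asf1a carry histones to DNA and Hmgb2 bends DNA. The median of the replication list was 0.09. Without 1 array of 9 weeks, between 1 (mutant 1 or mutant 2) and 4 (mutant 3) of its genes were called, 3 without control 1 and 2 without control 2 or 3. In the histone list none rose without any of the controls or mutant 1 or 2, and 3 without mutant 3. Without control 3 of 13 weeks 11 of the replication list were called higher and 1 lower, beside 6.37% and 10.1% of all genes.

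Genes that handle RNA and start translation gave a few rises. Of 46 translation factors 3 rose and none fell, against 2.02% and 2.98% of all genes: Eif6, which also acts in the maturation of the large ribosomal subunit (0.69), Eif5 (0.60) and the poly(A)-binding protein gene Pabpc4 (1.02). Of 28 genes of RNA decay, export and surveillance, the exosome genes Dis3 (0.81) and Exosc1 (0.65) and the exon junction gene Rbm8a (0.78, but 0.14 in a further probe set) rose and Smg5, of nonsense-mediated decay, fell (-0.82). None of these 4 was called without any 1 array of 9 weeks, and of the 3 translation factors 1 was called without mutant 3 and none without any of the others. Of 76 splicing factors none was called by limma, 14 had an unadjusted p below 0.05, which is 14 of 76 against 21.4% of all genes, and the median was -0.01.

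In the ATF4 branch of the stress response, which raises amino acid synthesis and transport, 3 of 26 genes rose and none fell, against 2.02% and 2.98% of all genes. Ddit3 read 9.04, 9.06 and 9.09 in control mice and 10.20, 10.27 and 10.48 in the mutants (1.25 ± 0.19, adjusted p = 0.0064). Psph, the last enzyme of serine synthesis, read 7.98, 7.92 and 7.90 against 8.61, 8.82 and 8.89 (0.84 ± 0.14, adjusted p = 0.00894), and Atf4 rose by 0.75. A list of 50 genes joined those for protein folding in the endoplasmic reticulum with those for glycosylation in any part of the cell. Of these 5 fell and none rose, against 2.98% of all genes lower, and 13 of the 50 differences were above 0. The 5 were the stress sensor gene Atf6 (-1.15), the chaperone gene Calr (-0.79) and the sugar transferase genes Gcnt2, St8sia3 (-1.19) and Galnt2 (-0.62). Further probe sets of Galnt2 over the filter differed by only -0.13 and -0.27. Only Gcnt2 of the 5 genes stayed called without any 1 array of 9 weeks. Between 1 and 3 of the stress list were called in those fits, 1 without mutant 2, and between 1 and 3 of the other, 1 without each array except mutant 3.

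Of 54 genes of nutrient, insulin and mTOR signalling 5 fell and none rose, against 2.98% and 2.02% of all genes, and 20 of the 54 differences were above 0 (median -0.19). FOXO factors switch on genes for catabolism when insulin signals are low, and 2 of them were here: Foxo1 read 10.38, 10.27 and 10.23 in control mice and 9.17, 9.40 and 9.21 in the mutants (-1.03 ± 0.14, adjusted p = 0.00377), and Foxo3 fell by 0.94. Ddit4l, an inhibitor of the mTOR kinase, read 8.66, 8.14 and 8.29 against 6.24, 6.97 and 6.00 (-1.96 ± 0.25, adjusted p = 0.00344). The other 2 were Sesn1, a brake on mTOR under stress (-0.80), and Ulk2, which starts autophagy (-0.75). Foxo1 and Ddit4l stayed called without any 1 array of 9 weeks, a further probe set of Ddit4l differed by -2.23, and in those fits between 2 (control 2, control 3, mutant 1 or mutant 2) and 4 (mutant 3) of the list were called, 3 without control 1.

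Of 19 circadian clock genes 3 fell and none rose, against 2.98% and 2.02% of all genes. Per3, a repressor of the clock, read 5.06, 4.76 and 4.87 in control mice and 3.79, 3.74 and 3.76 in the mutants (-1.13 ± 0.15, adjusted p = 0.00377). Tef (-0.84) and Hlf (-1.02), related activators whose own levels follow the clock, fell beside it, though a further probe set of Tef differed by 0.02. For Hlf the mutants read 9.80, 9.08 and 9.05 and the controls 10.27 to 10.38. Usp2, given among the large falls, is also known as a gene under clock control. The time of day at which tissue was taken is not given in the labels. Only Per3 stayed called without any 1 array of 9 weeks, and 1 of the list was called lower without each array except mutant 1, without which 2 were.

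A few genes best known from skeletal muscle fell. Of the 69 measured, 52 did not pass the filter on low values, and 4 of the other 17 were called lower (2.98% of all genes tested were). A gene that passed the filter through the controls alone had to differ, so nothing about the list is read from that count. Ryr1, the calcium release channel of muscle, read 6.46, 5.62 and 6.35 in control mice and 4.14, 3.35 and 4.10 in the mutants (-2.28 ± 0.33, adjusted p = 0.00533). Musk, the receptor kinase of the nerve-muscle synapse, read 5.98, 6.17 and 4.62 against 3.09, 3.28 and 2.55 (-2.62 ± 0.42, adjusted p = 0.00784), all 3 mutants below the 40th percentile. Pgam2, the muscle form of a glycolytic enzyme, fell by 1.99, and Actn2, an actin crosslinker that dendritic spines also use, by 1.57. Ryr1, Musk and Pgam2 were called in each fit without 1 array of 9 weeks, and Actn2 was not.

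Of 50 genes of calcium stores and calcium-dependent enzymes 4 fell and none rose, against 2.98% of all genes lower: Ryr1, counted above too, its relative Ryr3 (-1.16), the calcium pump gene of the endoplasmic reticulum Atp2a2 (-1.06) and the kinase gene Camk1d (-0.78). Atp2a2 was at 13.24, 13.06 and 13.31 in control mice and 12.25, 12.29 and 11.89 in the mutants. The median of the list was -0.23. Without 1 array of 9 weeks 1 or 2 of the list were called, 1 without control 1, control 3 or mutant 2.

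Single genes of neuronal signalling were called, mostly lower. Of 29 receptors for peptides, amines and lipids, the receptor genes Gpr83 (-0.95), Gpr155 (-1.14), Hrh3 for histamine (-1.37) and Cnr1 for cannabinoids (-1.73) fell, and Cckbr for cholecystokinin rose (1.26). Cnr1, read here by a dim probe set, was at 3.82, 4.61 and 5.07 in control mice and 2.72, 2.67 and 2.92 in the mutants, the latter all below the 40th percentile. Gria1 (-1.05) and Grik5 (-1.63), subunits of glutamate receptors, fell among 19 ion channel receptors of transmitters. The receptor list for peptides, amines and lipids had 4 falls of 29, against 2.98% of all genes. At 9 weeks Cnr1 was above the 40th percentile in the controls alone and so had to differ. Nothing about this list is therefore read from its count. Of the list 1 gene was called without control 3 or without mutant 2 and none without any of the other arrays of 9 weeks.

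Of 82 synaptic vesicle and scaffold genes 4.88% were called, near the 5% of all genes. The 4 were all lower: Doc2b, a calcium sensor of release (-0.96), Nlgn2, the adhesion protein of inhibitory synapses (-1.33), Synpo, of the spine apparatus (-1.23), and Ppfia4, a liprin (-0.80). Of 63 genes of axon guidance and adhesion 4 fell and none rose, against 2.98% of all genes lower. They were Icam5, a dendrite adhesion molecule (-1.49), Cdh9 (-1.68), and Cdhr1 and Musk, whose mutants were below the 40th percentile. At 9 weeks Cdhr1 and Musk were above that level in the controls alone and so had to differ. Nothing about the adhesion list is therefore read from its count. The median differences of these lists were -0.26 and -0.36, and without mutant 3 they were -0.17 and -0.26. Of the vesicle and scaffold list 1 gene was called without control 2 and none without any other array of 9 weeks. Of the adhesion list only Cdhr1 and Musk were called in each of the 6 fits.

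Of 65 microtubule and motor genes 5 fell and none rose, against 2.98% of all genes lower, and 15 of the 65 differences were above 0. Tuba4a, an alpha tubulin, read 13.17, 13.24 and 13.18 in control mice and 12.11, 11.97 and 12.28 in the mutants (-1.08 ± 0.16, adjusted p = 0.0064). Mapre3, which binds growing microtubule ends (-1.36), Kif3b (-1.22) and Kifap3 (-0.69), subunits of 1 kinesin motor, and the microtubule kinase gene Dclk1 (-1.12) made up the rest. The other probe sets least like these differed by -0.22 for Kif3b, -0.11 for Kifap3 and -0.01 for Dclk1. Of the list 1 was called without each array except mutant 3, without which 2 were.

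Regulators of small GTPases had 5 falls and 1 rise among 84 genes, against 2.98% and 2.02% of all genes, with Rasl11b and Rerg the largest falls and Cyth2 the rise. Rab GTPases, which direct vesicles, had 3 falls among 43 (Rab15, -1.07; Rab40c, -0.66; Rab11b, -0.53). Among 28 neuropeptide and granin genes Cartpt and Ece2 rose and Chgb, a granin, fell (-0.75). Of 37 potassium channel genes Kcnip2 alone was called (-1.04), and of 25 sodium and calcium channel genes Scn3b fell (-0.76) and Trpv2 rose (1.16). Of the small GTPase regulators 3 or 4 were called in each of the 6 fits, and of the Rab list none except without mutant 3, with 2.

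**Figure D3:**
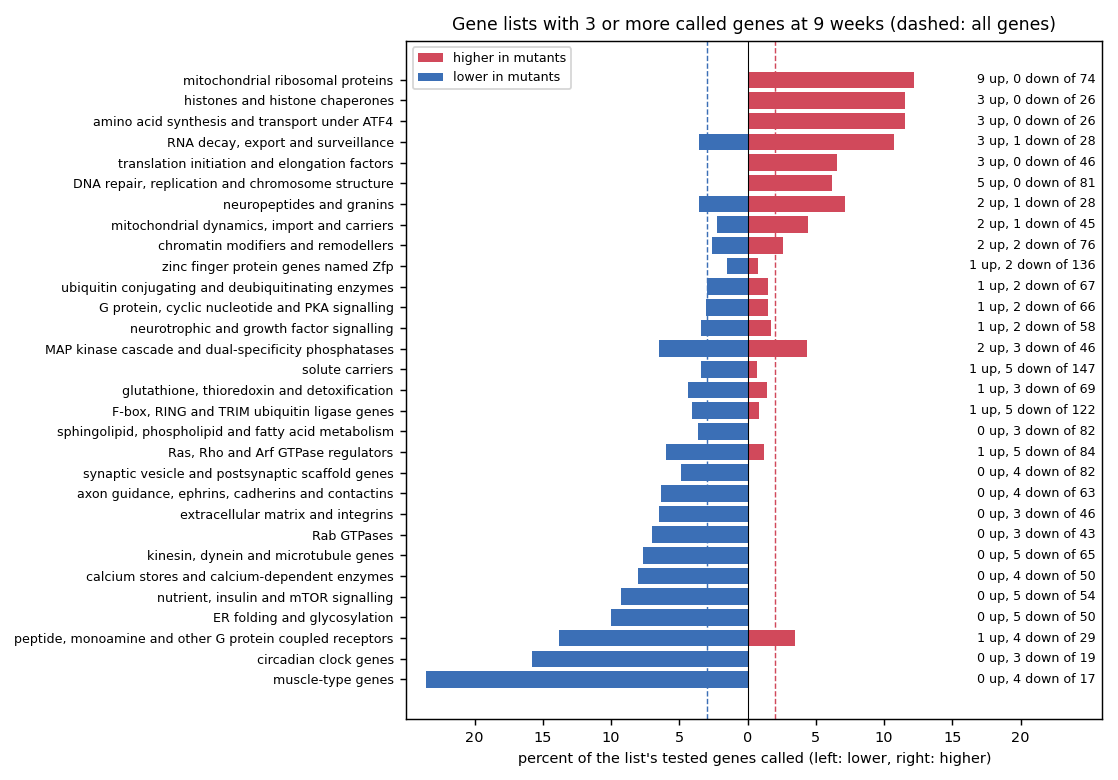
The lists with 3 or more called genes at 9 weeks among at least 15 tested (vertical axis), with the percent of tested genes called higher (red, to the right) or lower (blue, to the left) in the mutants. The dashed lines mark all genes, 2.02% higher and 2.98% lower. Mitochondrial ribosomal proteins lie at the top with 9 of 74 higher, and the muscle-type list at the bottom, 4 of 17 lower, holds only the genes that passed the filter on low values.

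Protein turnover and transport lists were near the background. Of 122 ubiquitin ligase genes 1 rose and 5 fell, with Herc1 (-0.84) and Trim11 (-1.23) lower and Rnf114 (0.71) higher. Of 67 conjugating and deubiquitinating enzymes Ube2k rose (0.72) while Usp2 and Usp48 (-0.61) fell. A further probe set over the filter differed by -0.36 for Ube2k, against its rise, and by -0.04 for Usp48. Of 44 proteasome genes Psmg1 rose. Of 147 solute carriers 1 rose and 5 fell, and of 136 Zfp genes 1 rose and 2 fell. Of 69 genes of glutathione, thioredoxin and detoxification, Gpx6, Cbr3 and Ephx1 (-0.89), an epoxide hydrolase, fell in every fit without 1 array of 9 weeks, and Gsta4 rose (1.07) in the fit with all arrays. Of 82 lipid genes Smpd3, a neutral sphingomyelinase, fell most, at 9.21, 9.08 and 9.17 in control mice and 7.05, 7.58 and 6.84 in the mutants (-2.0 ± 0.37, adjusted p = 0.0161).

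Lists of signals between cells and of the matrix had 4.65% to 6.52% of their tested genes called, beside 5% of all genes. Of 38 cytokine and receptor genes Il17rc and Il34, a ligand that keeps microglia alive (-1.45), fell. Of 58 growth factor signalling genes Sort1, a sorting receptor for neurotrophins (-1.08), and the activin receptor gene Acvr1b (-0.94) fell and Smad2 rose (0.64). Wnt2 fell (-1.33) and Notch1 rose (0.61) among 43 genes of their pathways. A further probe set over the filter differed by only -0.10 for Sort1 and 0.03 for Notch1. Of 46 matrix genes Coch (-1.90), Col6a1 (-0.98) and Agrn (-0.63) fell.

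Immediate early genes, which neurons switch on within minutes of activity, had no call among 28 by limma, with 2 at an unadjusted p below 0.05, against 21.4% of all genes. The mutants differed among themselves here more than in any list above: the mean shift was 1.07 in mutant 1, 0.01 in mutant 2 and -0.35 in mutant 3. Gadd45g, a stress-induced gene counted in this list, read 7.54, 8.01 and 7.82 in control mice and 9.32, 8.58 and 8.55 in the mutants (1.03 ± 0.28, adjusted p = 0.0591).

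Each gene's difference at 9 weeks was then set beside its difference at 13 weeks, from other mice of the same genotypes, with the interaction, the difference at 13 minus that at 9 weeks, as the test. At 13 weeks 45.3% of all genes were called, and all 3 mutants there were female, as was 1 of the 3 controls, so sex and genotype are partly mixed at that age. Of the 413 genes 286 (69.2%) were called at 13 weeks too, 279 of them in the same direction, and these 286 made up 7.64% of the genes called at 13 weeks. The interaction was called for 18.4% of all genes and for 92 of the 413. Among those 92, the difference was larger at 13 weeks in the same direction in 45 and had opposite signs at the ages in 34.

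Many of the large rises had like values at both ages. Snhg1 differed by 3.43 at 9 and 3.77 at 13 weeks, an interaction of 0.33 ± 0.35. Cyth2 (1.49 and 1.42), Rfc4 (1.43 and 1.27), Tspan6 (1.42 and 1.34), Tma16 (1.33 and 1.29), Mrm1 (1.27 and 1.26), Slc25a28 (1.03 and 0.97) and Chchd1 (1.03 and 0.99) had interaction p-values of 0.72 or more after adjustment, which does not show that the ages are alike. Ryr1 (-2.28 and -2.55) and Il17rc (-1.78 and -1.61) were such genes among the falls.

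Other genes were called at 9 weeks, were not called at 13 weeks and were called in the interaction. The interaction shares the 9-week arrays, so for genes named for their 9-week values it is not independent of the choice. That choice favours a smaller difference at 13 weeks. Cartpt went from 1.89 to 0.48, Top1mt from 1.68 to 0.24, Epb41l4b from 1.57 to 0.36 and Mns1 from 1.56 to 0.47. Rasl11b went from -1.76 to -0.38 and Ephx1 from -0.89 to 0.13. Among the listed genes Clpp (0.82 and -0.15), Timm9 (0.88 and -0.14), Rnf114 (0.71 and 0.09), Galnt2 (-0.62 and -0.01) and Ulk2 (-0.75 and -0.01) were alike in this.

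In another group the difference at 9 weeks was the smaller one. Icam5 went from -1.49 to -4.17, Wnt2 from -1.33 to -3.77, Smpd3 from -2.0 to -4.12 and Actn2 from -1.57 to -3.32, and among rises Atf4 went from 0.75 to 1.66. A few genes were called at both ages in opposite directions: Dlk2 (0.89 and -1.05) and Mbd3, a chromatin repressor subunit (0.85 and -0.79), were higher first, and Sdc3, a heparan sulfate proteoglycan (-0.93 and 1.49), Adam17, a membrane protease (-0.68 and 1.71), Ptbp3 (-1.03 and 0.79), Ppfia4 (-0.80 and 0.79) and Fstl1 (-0.79 and 0.59) were lower first. None of these 7 was called at 9 weeks in all 6 fits without 1 array, and a further probe set of Ppfia4 differed by 0.03 and of Adam17 by -0.06 at 9 weeks.

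**Figure D4:**
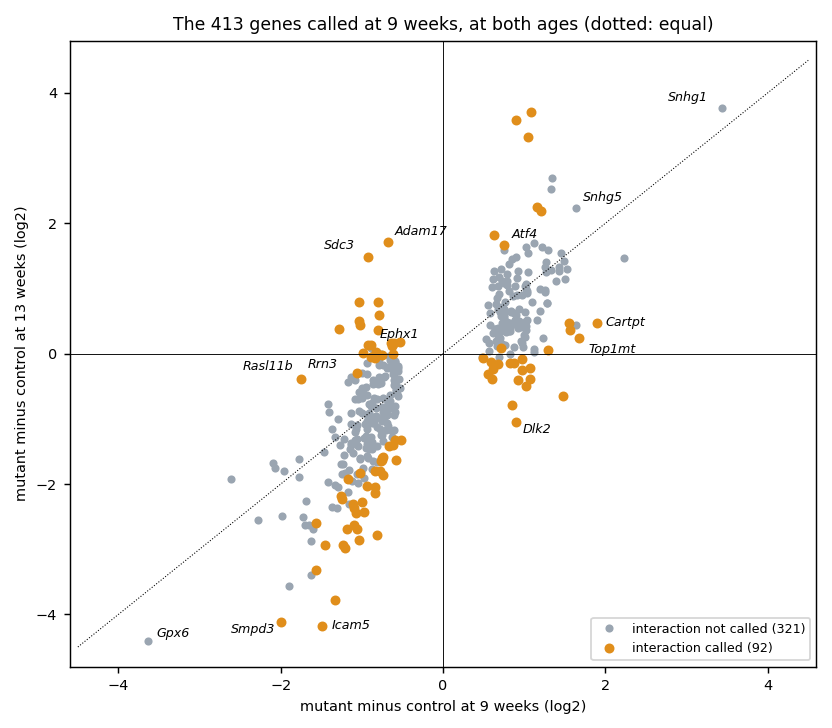
The 413 genes called at 9 weeks, by their mutant minus control difference at 9 weeks (horizontal, log2) and at 13 weeks (vertical, log2). Orange points are the 92 genes whose difference changed between the ages by the interaction test, and the dotted line marks equal differences. Snhg1 lies near the line, Cartpt and Top1mt lie near a difference of 0 at 13 weeks, and Sdc3 and Adam17 lie on the other side of 0.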

How the data were processed

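Total RNA from mouse striatum was measured on Affymetrix arrays. The authors deposited log2 values summarised with GCRMA, per the submitters' processing notes and the values themselves; the version and genome build are not given in the sources used here. GCRMA corrects background by probe sequence and draws dim probe sets together, which limits folds near the floor. Of 22690 probe sets, 64 array controls were dropped, 20380 had 1 gene symbol, 691 several and 1555 none; only those with 1 were named, and the probe set with the highest mean stood for its gene. Genes above the 40th percentile on 3 or more of 12 arrays were kept (8256 of 12393). Limma (version 3.58.1, R 4.3.3) fitted the 4 groups of genotype and age together (8 residual degrees of freedom), with Benjamini-Hochberg adjustment and a threshold of 0.05. The precision is limited by 3 arrays a group.

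On simulated data 54% of 1-log2 and 94% of 2-log2 changes were recovered at 9 weeks, with 5.13% false calls. Named genes were the 20 largest rises and falls among genes called in every fit without 1 array of 9 weeks (only 18 rose), up to 5 called genes of each list by p (2 of lowest p where none was called), and 8 rises and 8 falls with the clearest opposite sign at 13 weeks; Mrps24, Mrpl13, Mrpl18 and Mrpl42 were added as the rest of their list. Members and lists were chosen with earlier results of these data known. Alternatives were other normalizations, filters, probe set rules, sample sets, array weights, priors, a sex term, a replicate block and leaving out each array. Counts within lists without single arrays were chosen after seeing the data. P-values measure the spread between mice only.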

Additional observations from a re-analysis of the deposited data

Results flagged for a closer look

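The genes named in the report whose genotype difference changed between 9 and 13 weeks were 49, tested as the interaction over all genes by limma with Benjamini-Hochberg adjustment; each value in parentheses is the log2 difference at 13 weeks minus that at 9 weeks. The genes were chosen in part for a call at 9 weeks, so the interaction, which shares those arrays, is not independent of the choice. The cause of a change was not tested.

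The falls that were larger at 13 weeks were Icam5 (-2.69), Wnt2 (-2.45), Smpd3 (-2.13), Kcnip2 (-1.82), Actn2 (-1.75), Synpo (-1.71), St8sia3 (-1.50), Il34 (-1.48), Rarb (-1.29), Erich3 (-1.04), Cbx6 (-1.04), Camk1d (-1.01), Rerg (-0.98), Tef (-0.97), Cnnm2 (-0.94), Scn3b (-0.88), Chgb (-0.85), Map3k12 (-0.81), Adcy3 (-0.76) and Slc25a22 (-0.73). The differences above 0 that were larger at 13 weeks were Atf4 (0.91) and Gadd45g (1.86), of which Gadd45g was not called at 9 weeks.

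Differences that were near 0 or much smaller at 13 weeks belonged to Top1mt (-1.44), Cartpt (-1.42), Epb41l4b (-1.21), Mns1 (-1.09), Timm9 (-1.02), Clpp (-0.97), Rnf114 (-0.62), Galnt2 (0.61), Ulk2 (0.73), Ephx1 (1.02) and Rasl11b (1.37).

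Opposite signs at the ages were seen in Amn (-2.14), Dlk2 (-1.94), Mbd3 (-1.64), Braf (-1.52), Ago2 (-1.47), Aktip (-1.32), Gsta4 (-1.29) and Bok (-1.22), which were higher in the mutants at 9 weeks, and in Fstl1 (1.38), Hip1 (1.47), Dhrs3 (1.54), Ppfia4 (1.59), Slc41a1 (1.66), Ptbp3 (1.82), Adam17 (2.39) and Sdc3 (2.42), which were lower. A further probe set of Hip1 differed by 0.00 and one of Sdc3 by -0.26 at 9 weeks. The smallest adjusted p of these tests was 2.29e-05, for Adam17, and the largest was 0.0479, for Adcy3.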

How the results depend on the processing

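The count of 413 genes at 9 weeks was 338 to 447 with quantile normalization, median centring, no filter, a filter at the 60th percentile, the mean of all probe sets, a trend and robust prior, a sex term, no moderation or a replicate block (435). Replicate numbers did not pair the mice (correlations of same-numbered deviations 6.07e-04, 0.0732 and -0.0731), so the block is a check only. Median centring turned 167 higher and 246 lower into 215 and 173. With only the 6 arrays of 9 weeks 1050 genes were called, 402 of the 413 among them. Array weights gave 3833 calls, but their estimation did not converge and put a weight of 23.7 on mutant 2. Leaving out 1 array gave 62 (mutant 2 of 9 weeks) to 1358 (control 3 of 13 weeks), with 269 and 254 without mutant 1 or 2 of 13 weeks. The interaction count of 1523 stayed within 1071 to 1951. None of the 161 genes named by the rule and called with all arrays changed direction where it had a value (138 did under the filter at the 60th percentile); Mrps24, Mrpl13, Mrpl18, Mrpl42, the hosts that were not called and the neighbours of Rrn3 were not followed. Of the 161, 53 lost the call with the mean of all probe sets, 47 without moderation and 114 without mutant 2 of 9 weeks. With 3 arrays a group and 54% recovery of 1-log2 changes on simulated data, smaller differences are mostly out of reach.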
